A study of Sus scrofa with 23 samples.

Results

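Translation initiation and elongation factors, the proteins that load ribosomes onto mRNA and move them along it, were examined at the RNA level in the Longissimus, a back muscle of the pig. The members were all array probes whose symbol in the scanner files, or the symbol in parentheses in their description, begins with EIF or EEF. This gave 13 genes of the 5250 named on the arrays, on 63 of 43603 non-control probes. Agilent single-colour arrays carried 1 pig each, and all 23 pigs weighed 115 kg. There were 7 low-RFI pigs (RFIneg) with free access to feed, 8 restricted high-RFI pigs (RFIplR) that were given feed at the low-RFI level, and 8 high-RFI pigs (RFIpl) with free access to feed. RFI, residual feed intake, is what an animal eats beyond the need predicted from its growth and maintenance. RFIneg against RFIpl compares the lines under free feeding, RFIplR against RFIpl compares feeding levels within the high line, and RFIneg against RFIplR compares the lines at the same feeding level. The labels give no age, sex or litter of the pigs, and they do not say whether pigs of a line were related.

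Translation begins when the initiation factors eIF4E, eIF4A and eIF4G, together the eIF4F complex, bind the capped end of an mRNA and recruit the small ribosomal subunit with eIF3 and with eIF2, which carries the initiator tRNA. The exchange factor eIF2B recharges eIF2 with GTP. In elongation, eEF1A brings each aminoacyl-tRNA to the ribosome and eEF2 moves the ribosome by a codon. Some proteins restrain these steps. The 4E-BPs bind eIF4E and are released by mTOR signalling, the EIF2AK kinases phosphorylate eIF2 under stress, and eEF2 kinase blocks eEF2. In muscle these steps set the rate of protein synthesis, much of it through phosphorylation of the factors, which RNA levels do not show.

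Of the 13 genes 8 were counted as initiation factors (EIF2B1, EIF2B5, EIF3E, EIF4A1, EIF4A2, EIF4A3, EIF4E2 and EIF4G1). There was 1 elongation factor (EEF1A1) and 1 restraining factor (EIF4EBP1). The 3 others were EIF4ENIF1, a protein that carries eIF4E to the nucleus and to processing bodies, and AGO1 and AGO2, which the files list under the older symbols EIF2C1 and EIF2C2 and which are Argonautes of small-RNA silencing, not initiation factors. EIF4G1 was listed as EIF4GI. EIF4A3 is an RNA helicase of the exon junction complex and has its name from its likeness to eIF4A, but it was counted as an initiation factor. EEF1A1 had 18 probes, EIF3E 14 and EIF4A2 13, EIF2B1 and EIF4A1 had 3 each, EIF2B5, EIF4A3, EIF4ENIF1 and AGO2 2 each, and EIF4E2, EIF4EBP1, EIF4G1 and AGO1 1 each.

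Each probe is a 60-base oligonucleotide. The results on EEF1A1, EIF3E and the EIF4A genes rest on several probes, so it matters how far these are separate measurements, and pairs of them are printed 5′ to 3′ as the scanner files give them. Pairs were counted if they shared at least 20 end bases exactly, without a gap. There were 2 such pairs among the 18 EEF1A1 probes, 3 among the 14 EIF3E probes and 1 among the 13 EIF4A2 probes. The counts understate the overlap, as they miss probes that cover the same stretch with a base missing or added. Such are EEF1A1 probes 5, 6 and 8, EIF3E probes 1, 3 and 4, and EIF4A2 probes 1, 3 and 4 (numbered from the brightest). In the EEF1A1 and EIF3E pairs below, capitals mark the 21 and 51 bases that the probes of a pair share, and the number is the probe's rank by mean level within its gene.
EEF1A1 probe 14: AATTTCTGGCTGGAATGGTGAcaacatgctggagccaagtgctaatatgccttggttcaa
EEF1A1 probe 18: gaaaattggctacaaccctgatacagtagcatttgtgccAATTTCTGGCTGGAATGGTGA
EIF3E probe 9: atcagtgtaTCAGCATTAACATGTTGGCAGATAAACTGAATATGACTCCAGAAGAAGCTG
EIF3E probe 10: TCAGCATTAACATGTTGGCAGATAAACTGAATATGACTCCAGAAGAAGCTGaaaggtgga

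EIF4A1 and EIF4A2 encode close paralogs of the eIF4A helicase, and cross-hybridisation between them would blur their separate values. A probe of each covers the same stretch, and 39 of 58 aligned bases were identical, shown in capitals.
EIF4A1 probe 3: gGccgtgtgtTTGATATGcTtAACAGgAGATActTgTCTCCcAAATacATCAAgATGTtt
EIF4A2 probe 13: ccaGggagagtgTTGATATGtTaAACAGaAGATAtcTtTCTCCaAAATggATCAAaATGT

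The single probes of EIF4EBP1 and EIF4G1 were both designed on reads from the 3′ end of a cDNA, and they are printed because their strand limits what their values mean.
EIF4EBP1: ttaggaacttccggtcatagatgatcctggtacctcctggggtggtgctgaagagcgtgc
EIF4G1: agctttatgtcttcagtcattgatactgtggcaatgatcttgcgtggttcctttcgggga
As deposited, the EIF4EBP1 letters have a stop codon in all 3 reading frames, and the reverse complement has 1 open frame. For EIF4G1 each strand has 1 open frame. Judged from general knowledge of the mammalian proteins, the open frame of each reverse complement reads as a stretch of 4E-BP1 and of eIF4G1, so the printed letters appear to be those of the strand opposite the mRNA. No transcript or protein sequence was at hand to test this. Values of these probes are given below as signals of the probes, and counts are given with and without them.

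Levels are log2 signals relative to the 75th percentile of the same array, so 0 is the signal of a bright probe at that percentile, and levels of different probes cannot be set against each other. A probe entered the fits if a group had 6 or more arrays on which the scanner software called it well above background, as 62 of the 63 probes did. The probe left out was the dimmer AGO2 probe. Each gene is represented by its brightest kept probe unless other probes are named. Between 41.6% and 79% of probes were well above background on an array, with medians of 69.3% in RFIneg, 67.3% in RFIplR and 67.9% in RFIpl, and no member probe was saturated. The arrays lay on 6 slides, each holding all 3 groups, and were scanned on 2 days. Slide 3, with 41.6% to 58.8% of probes well above background, stood lowest. Among 12 measured markers of skeletal muscle fibres of 14 listed, the mean level was 8.99 to 9.28 in RFIneg, 8.78 to 9.33 in RFIplR and 8.79 to 9.23 in RFIpl, as the tissue label says.

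No translation factor passed an adjusted p of 0.05 in limma in any comparison. Among all 27797 kept probes the share that passed was 0.122% for RFIneg minus RFIpl, 0.0036% for RFIplR minus RFIpl and 0.162% for RFIneg minus RFIplR, so a count of 0 in 13 genes is near the background. At an unadjusted p under 0.05 the members numbered 4 of 13 for RFIneg minus RFIpl, beside 11.1% of all kept probes, 5 of 13 for RFIplR minus RFIpl, beside 9.76%, and 2 of 13 for RFIneg minus RFIplR, beside 10.2%. All 11 of these differences were positive, beside 7.19% of all kept probes that were higher at such a p and 3.91% that were lower for RFIneg minus RFIpl, 4.95% and 4.81% for RFIplR minus RFIpl, and 5.57% and 4.61% for RFIneg minus RFIplR. The differences were above 0 in 13, 11 and 7 of the 13 genes, where 55.3%, 53.1% and 54.7% of all kept probes were above 0. Their medians were 0.20, 0.18 and 0.00 on the log2 scale, and the medians over all kept probes were 0.02, 0.01 and 0.02. Without EIF4EBP1 and EIF4G1 the medians of the other 11 genes were 0.16, 0.18 and 0.03, and 4, 4 and 2 genes had an unadjusted p under 0.05. The comparisons share groups and are not independent of each other.

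Bright probes as a whole were shifted in the same direction, and many members are bright. Among the 2780 brightest kept probes (10%), with a mean level of at least 3.99, the median difference was 0.08 for RFIneg minus RFIpl, 0.06 for RFIplR minus RFIpl and 0.02 for RFIneg minus RFIplR. Of these 20.5% were higher at an unadjusted p under 0.05 in RFIneg than in RFIpl and 3.67% lower, and 8.56% were higher and 1.33% lower in RFIplR than in RFIpl. With quantile normalization the median differences of the same probes were 0.02, 0 and 0.01. Normexp, a background correction that models each spot as noise plus signal, was run in 2 versions. Both turned the median of the bright probes negative for RFIplR minus RFIpl and raised it for RFIneg minus RFIplR. The fit to negative controls put their medians at 0.05, -0.42 and 0.47 and the saddle-point fit at -0.15, -0.78 and 0.63, while the medians of all kept probes were 0.04, 0.09 and -0.07 with the first and 0.08, 0.21 and -0.14 with the second. The part of these shifts in the members' differences was not tested. Many members whose values they moved are given with these corrections beside the main values, but not in every comparison.

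Among the 13 genes the largest difference between the free-fed lines was that of EEF1A1, the eEF1A isoform of most tissues. Its level was 7.59 at the lowest, 7.95 at the median and 8.27 at the highest in RFIneg pigs, 6.91, 7.45 and 8.10 in RFIplR pigs, and 7.11, 7.56 and 7.88 in RFIpl pigs. Of the 7 RFIneg pigs 5 lay above the highest RFIpl pig and 3 above the highest RFIplR pig, and all 7 lay above the median of either high-line group. The RFIplR pigs were spread most widely, with an SD of 0.49 beside 0.24 in RFIneg and 0.26 in RFIpl.

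EEF1A1 averaged 7.99 ± 0.24 in RFIneg (SD, n = 7), 7.49 ± 0.49 in RFIplR and 7.50 ± 0.26 in RFIpl (n = 8 each). RFIneg minus RFIpl was 0.50 (SE 0.18, limma p 0.0101, adjusted p 0.283) and RFIneg minus RFIplR was 0.50 (SE 0.18, limma p 0.00941, adjusted p 0.322). RFIplR minus RFIpl was -0.01 (SE 0.17, limma adjusted p 0.998). The means of both high-line groups thus lay 0.01 apart and that of RFIneg 0.50 above each, and neither difference of 0.50 passed over all probes. The place of RFIplR in this order depended on the background correction. With normexp fitted to negative controls the EEF1A1 differences were 0.47 for RFIneg minus RFIpl, -0.45 for RFIplR minus RFIpl and 0.92 for RFIneg minus RFIplR, and with the saddle-point fit 0.26, -0.82 and 1.08. On 6 of 6 slides RFIneg minus RFIpl was above 0, at 0.47 on scan day 1 and 0.55 on scan day 2, and it was 0.40 with quantile normalization. On 5 of 6 slides RFIneg minus RFIplR was above 0, at 0.31 and 0.72 on the 2 days, and it was 0.71 (limma p 0.000822, adjusted p 0.242) without slide 3, which held 2 RFIplR pigs with levels of 8.10 and 7.98.

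All 18 EEF1A1 probes gave the same picture. RFIneg minus RFIpl lay between 0.43 and 0.54, with limma p between 0.00415 and 0.0196, on probes whose mean levels ran from 4.08 to 7.64. RFIneg minus RFIplR lay between 0.37 and 0.50, and RFIplR minus RFIpl between -0.01 and 0.11. Over the 23 pigs the correlation between 2 EEF1A1 probes was 0.91 to 0.99, median 0.97 over 153 pairs, and the median was 0.96 after the group means were taken out. These probes share the pig, the array and the transcript, so they are repeated readings of 1 gene and not replicates of the comparison. EEF1A1 has many processed copies in mammalian genomes and a close paralog in muscle, EEF1A2, which is not analysed here, and a probe may take up signal from either.

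**Figure D1:**
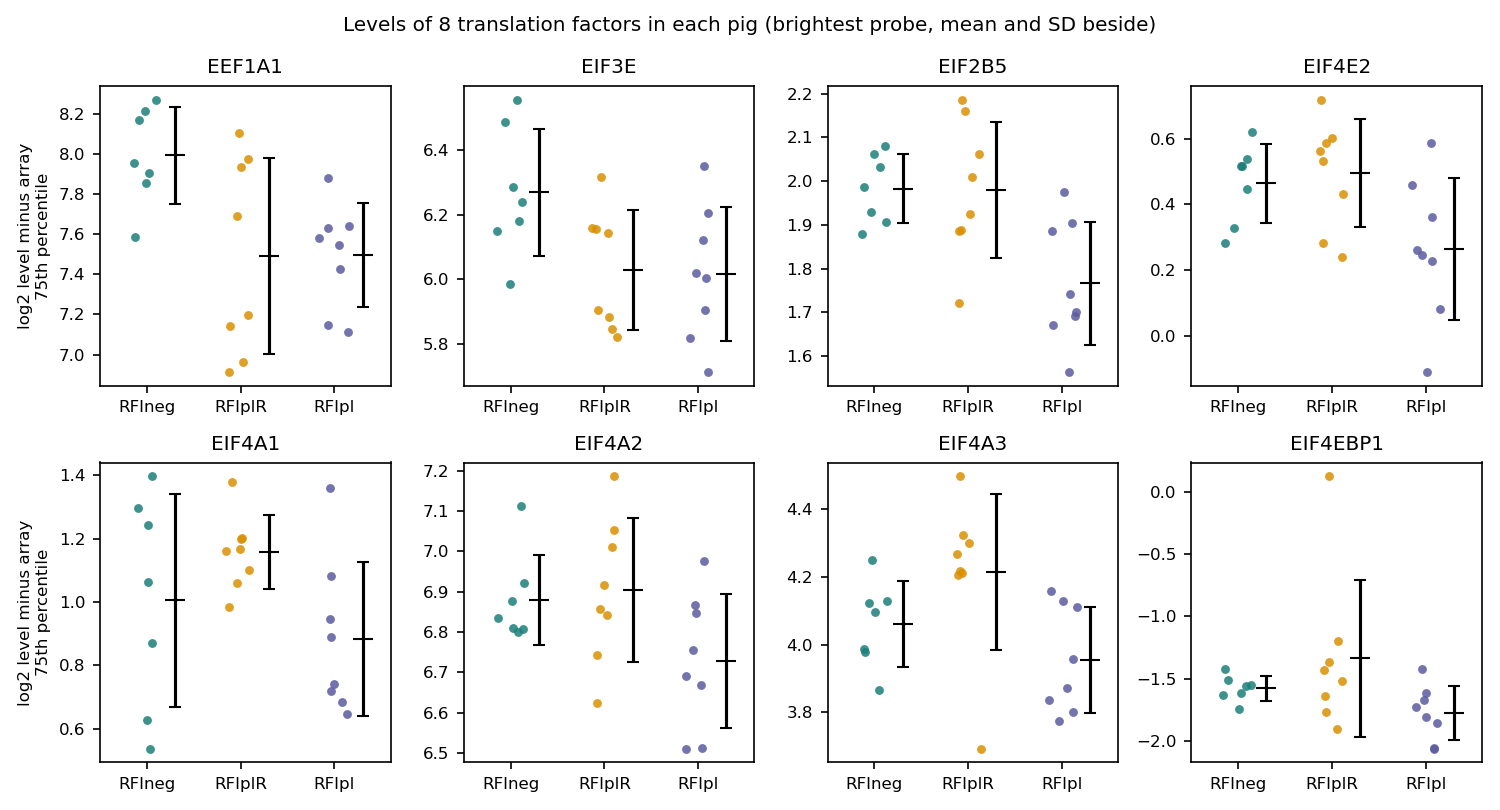
Level of 8 factors in each pig, in log2 units relative to the 75th percentile of the array, with RFIneg, RFIplR and RFIpl from left to right. Points are pigs (7, 8 and 8), and the bar beside them is the mean with 1 SD. For EEF1A1, 5 of 7 RFIneg pigs stand above every RFIpl pig, while for EIF4A3 7 of 8 RFIplR pigs do and 1 lies at 3.69, below every RFIpl pig.

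EIF3E, a subunit of the eIF3 scaffold, had its values ordered like those of EEF1A1. Its level was 5.99, 6.24 and 6.56 at the lowest, median and highest in RFIneg pigs, 5.82, 6.02 and 6.32 in RFIplR pigs and 5.71, 6.01 and 6.35 in RFIpl pigs. The groups overlapped, with 2 of 7 RFIneg pigs above the highest RFIpl pig and 6 of 7 above the RFIpl median. Its differences were 0.25 for RFIneg minus RFIpl (SE 0.11, limma p 0.0273, adjusted p 0.374), 0.24 for RFIneg minus RFIplR (SE 0.11, p 0.0348, adjusted p 0.447) and 0.01 for RFIplR minus RFIpl (SE 0.10, adjusted p 0.991). On the 14 EIF3E probes these differences ranged from 0.23 to 0.31, from 0.21 to 0.28 and from -0.01 to 0.06. The sign of RFIneg minus RFIpl was positive on 6 of 6 slides, with 0.25 and 0.22 on scan days 1 and 2, and it was 0.19 with quantile normalization. Normexp moved the EIF3E values as it did those of EEF1A1, to 0.24 for RFIneg minus RFIpl, -0.53 for RFIplR minus RFIpl and 0.77 for RFIneg minus RFIplR with the fit to negative controls, and to 0.04, -0.81 and 0.85 with the saddle-point fit.

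The levels of EEF1A1 and EIF3E were also set against each other from pig to pig. Over 23 pigs Pearson's r was 0.37 (permutation p 0.0829) and Spearman's rho 0.33 (permutation p 0.132, both two-sided). No other pair of members was examined. Group means were not taken out here or within the scan days, so differences between the groups enter those values. Without the 2 pigs farthest from the median EEF1A1 level r was 0.26. It was -0.05 within RFIneg, 0.01 within RFIplR and 0.38 within RFIpl. In the 12 pigs of scan day 1 r was 0.26 (permutation p 0.417) and rho 0.19 (permutation p 0.557). In the 11 pigs of scan day 2 r was 0.66 (permutation p 0.0294) and rho 0.74 (permutation p 0.0123), and the difference between the days was not tested.

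**Figure D2:**
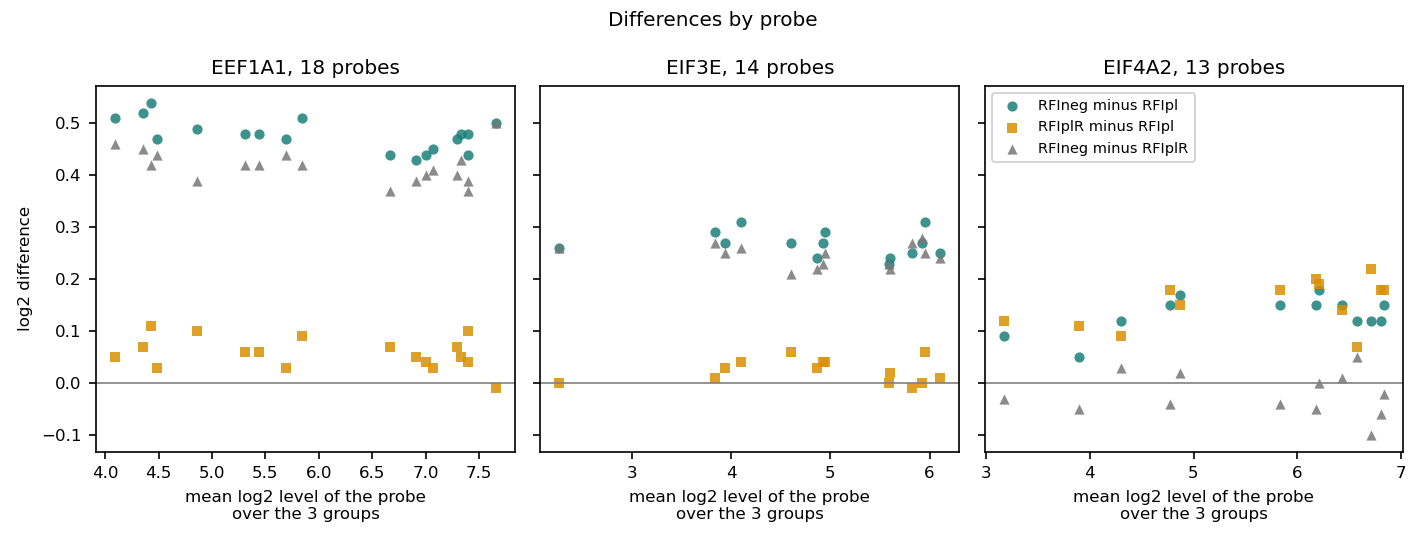
Log2 difference (vertical axis) of each probe of EEF1A1, EIF3E and EIF4A2 against its mean log2 level over the 3 groups, with circles for RFIneg minus RFIpl, squares for RFIplR minus RFIpl and triangles for RFIneg minus RFIplR. In EEF1A1 and EIF3E the circles and triangles lie together above the squares at every level, and in EIF4A2 the circles and squares lie together above the triangles on most probes.

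EIF2B5 and EIF4E2 were ordered differently, with the means of RFIneg and RFIplR close to each other and that of RFIpl lowest. EIF2B5, the catalytic subunit of eIF2B, stood at 1.88, 1.99 and 2.08 at the lowest, median and highest in RFIneg pigs, at 1.72, 1.97 and 2.19 in RFIplR pigs and at 1.56, 1.72 and 1.97 in RFIpl pigs. Of the 7 RFIneg pigs 4 lay above the highest RFIpl pig, as did 4 of 8 RFIplR pigs. EIF2B5 had RFIneg minus RFIpl of 0.22 (SE 0.08, limma p 0.0129, adjusted p 0.299), RFIplR minus RFIpl of 0.21 (SE 0.08, p 0.0113, adjusted p 0.326) and RFIneg minus RFIplR of 0.00 (SE 0.08, adjusted p 0.996). On 6 of 6 slides RFIplR minus RFIpl was above 0, but it was -0.05 with normexp fitted to negative controls and -0.31 with the saddle-point fit. The other EIF2B5 probe gave 0.16, 0.11 and 0.05. EIF2B1, the alpha subunit of the same complex, was ordered like EEF1A1 and EIF3E on its brightest probe. There its differences were 0.13 (SE 0.07), 0.01 (SE 0.07) and 0.12 (SE 0.07), with limma adjusted p of 0.527, 0.988 and 0.596. On that probe 7 of 7 RFIneg pigs lay above the median of either high-line group. Its RFIplR minus RFIpl was -0.04 with quantile normalization and -0.22 and -0.45 with the normexp fits. EIF2B1 probe 2 gave 0.20 (limma p 0.0418, adjusted p 0.43), 0.14 and 0.06, and probe 3 gave 0.20, 0.02 and 0.18.

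EIF4E2, a cap-binding relative of eIF4E that can repress translation, had levels of 0.28, 0.52 and 0.62 at the lowest, median and highest in RFIneg pigs, 0.24, 0.55 and 0.72 in RFIplR pigs and -0.11, 0.25 and 0.59 in RFIpl pigs. The ranges overlapped, but 7 of 7 RFIneg and 7 of 8 RFIplR pigs lay above the RFIpl median. Its differences were 0.20 for RFIneg minus RFIpl (SE 0.10, limma adjusted p 0.453), 0.23 for RFIplR minus RFIpl (SE 0.09, p 0.022, adjusted p 0.402) and -0.03 for RFIneg minus RFIplR (SE 0.10, adjusted p 0.953).

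On their brightest probes the EIF4A helicase genes had their highest means in restricted pigs, an order that normexp turned in EIF4A2 and EIF4A3. With normexp fitted to negative controls RFIplR minus RFIpl was 0.17 for EIF4A1, -0.28 for EIF4A2 and -0.23 for EIF4A3, and with the saddle-point fit -0.01, -0.66 and -0.57. EIF4A3 stood at 3.87, 4.10 and 4.25 in RFIneg pigs, at 3.69, 4.24 and 4.50 in RFIplR pigs and at 3.77, 3.91 and 4.16 in RFIpl pigs. Of the 8 RFIplR pigs 7 lay above the highest RFIpl pig and 1 below the lowest. This gave RFIplR minus RFIpl of 0.26 (SE 0.10, limma p 0.0126, adjusted p 0.339), or 0.33 (p 0.000384, adjusted p 0.121) without RFIplR replicate 7, the low pig. The difference was above 0 on 5 of 6 slides, at 0.25 and 0.27 on scan days 1 and 2, and the other EIF4A3 probe gave 0.20. RFIneg minus RFIpl was 0.11 (SE 0.10, limma adjusted p 0.765) and RFIneg minus RFIplR -0.15 (SE 0.10, adjusted p 0.632). On the other EIF4A3 probe these differences were 0.19 (limma p 0.0352, adjusted p 0.407) and -0.01 (adjusted p 0.991).

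EIF4A1 stood at 0.54, 1.06 and 1.40 in RFIneg pigs, at 0.98, 1.16 and 1.38 in RFIplR pigs and at 0.64, 0.82 and 1.36 in RFIpl pigs. All 8 RFIplR pigs lay above the RFIpl median, and their SD of 0.12 was smaller than the 0.34 in RFIneg and 0.24 in RFIpl. For EIF4A1, RFIplR minus RFIpl was 0.27 (SE 0.12, limma p 0.0366, adjusted p 0.465), and 0.21 to 0.29 over the 3 probes. For EIF4A2, the paralog that is abundant in muscle, the differences of the brightest probe were 0.15 (SE 0.09) for RFIneg minus RFIpl, 0.18 (SE 0.09) for RFIplR minus RFIpl and -0.02 (SE 0.09) for RFIneg minus RFIplR, with limma adjusted p of 0.565, 0.53 and 0.963. Its 13 probes ranged from 0.05 to 0.18, from 0.07 to 0.22 and from -0.10 to 0.05, and their pairwise correlation over the pigs had a median of 0.86 and a low of 0.46. On the stretch printed above, EIF4A1 probe 3 gave 0.21 and EIF4A2 probe 13 gave 0.12 for RFIplR minus RFIpl.

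As a class, the 8 initiation factors had a median difference of 0.18 for RFIneg minus RFIpl (8 above 0, 2 with an unadjusted p under 0.05). It was 0.22 for RFIplR minus RFIpl (8 above 0, 4 with such a p) and -0.03 for RFIneg minus RFIplR (3 above 0, 1 with such a p). Of all kept probes 55.3%, 53.1% and 54.7% were above 0 in the 3 comparisons, and 11.1%, 9.76% and 10.2% had such a p. Among the 4 factors for RFIplR minus RFIpl were EIF4A3, of the exon junction complex, and EIF4E2, which can repress translation. Medians without EIF4A3 and EIF4E2 were not computed. Without EIF4G1 the medians of the other 7 were 0.15, 0.21 and -0.02. For RFIplR minus RFIpl, EIF2B1 and EIF3E were at only 0.01, and at -0.04 and -0.06 with quantile normalization. The order of restricted and free-fed high-RFI pigs in this class depended on how background was removed, as the class medians for RFIplR minus RFIpl turned negative under both normexp corrections, -0.14 with a fit to negative controls and -0.38 with a saddle-point fit.

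The probe of EIF4G1, the eIF4G scaffold gene, was dim. As its letters appear to be those of the strand opposite the mRNA, its level may not be that of EIF4G1 mRNA. It was well above background on 5 of 7 RFIneg, 7 of 8 RFIplR and 6 of 8 RFIpl arrays. Its levels were -5.06, -3.93 and -3.64, then -4.49, -4.01 and -1.88, and then -4.87, -4.28 and -3.77 at the lowest, median and highest. The largest of its differences was RFIplR minus RFIpl at 0.50 (SE 0.28, limma adjusted p 0.599), and 0.22 without RFIplR replicate 6, the pig at -1.88. For the line, RFIneg minus RFIpl was 0.23 (SE 0.29, limma adjusted p 0.842) and RFIneg minus RFIplR -0.27 (SE 0.29, adjusted p 0.824). Single pigs moved these as well, the first to 0.40 without RFIneg replicate 2, the pig at -5.06, and the second to 0.01 without RFIplR replicate 6. With the saddle-point fit RFIplR minus RFIpl of this probe was 0.97.

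The 1 restraining factor found by symbol, EIF4EBP1, which encodes 4E-BP1, had a probe level of -1.74, -1.56 and -1.43 at the lowest, median and highest in RFIneg pigs, -1.90, -1.48 and 0.13 in RFIplR pigs and -2.06, -1.77 and -1.42 in RFIpl pigs. The groups overlapped, and a single RFIplR pig stood far above the rest. For feeding level, RFIplR minus RFIpl was 0.44 (SE 0.19, limma p 0.031, adjusted p 0.444), above 0 on 6 of 6 slides, and 0.23 without RFIplR replicate 5, that pig. RFIneg minus RFIpl was 0.20 (SE 0.20, limma adjusted p 0.78). RFIneg minus RFIplR was -0.24 (SE 0.20, adjusted p 0.737), and -0.03 without the same pig.

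Of the 3 other genes, AGO1 had levels of -2.09, -1.95 and -1.70 in RFIneg pigs, -2.59, -1.97 and -1.71 in RFIplR pigs and -2.73, -2.26 and -1.93 in RFIpl pigs. All 7 RFIneg pigs lay above the RFIpl median, and RFIneg minus RFIpl was 0.32 (SE 0.14, limma p 0.0362, adjusted p 0.41), above 0 on 6 of 6 slides. RFIplR minus RFIpl was 0.18 (SE 0.14) and RFIneg minus RFIplR 0.14 (SE 0.14), with limma adjusted p of 0.743 and 0.796. The normexp fits gave AGO1 0.30 and 0.47 for RFIplR minus RFIpl and -0.04 and -0.15 for RFIneg minus RFIplR. EIF4ENIF1 had differences of 0.16, 0.12 and 0.03 (SE 0.09 each, limma adjusted p 0.551, 0.705 and 0.943). AGO2 was well above background on 6 arrays of each group and had differences of 0.02, -0.01 and 0.03 (SE 0.19, 0.18 and 0.19). The normexp fits gave AGO2 0.37 and 0.81 for RFIplR minus RFIpl and -0.28 and -0.49 for RFIneg minus RFIplR.

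Another 28 probes of 15 family genes carry no EIF or EEF symbol in the files and were named, after the files were seen, by accession, gene ID or gene description. They add the defining members that the symbols miss, such as EIF4E and EEF2K, and all 28 were kept. None passed an adjusted p of 0.05 in limma. Over all 28 genes the median differences were 0.14, 0.15 and -0.03. There were 22, 21 and 13 above 0, beside 55.3%, 53.1% and 54.7% of all kept probes. At an unadjusted p under 0.05, 7 were higher for RFIneg minus RFIpl, 10 were higher and 1 lower for RFIplR minus RFIpl, and 3 were higher and 2 lower for RFIneg minus RFIplR. Of all kept probes 7.19% were higher and 3.91% lower in the first comparison, 4.95% and 4.81% in the second and 5.57% and 4.61% in the third.

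**Figure D3:**
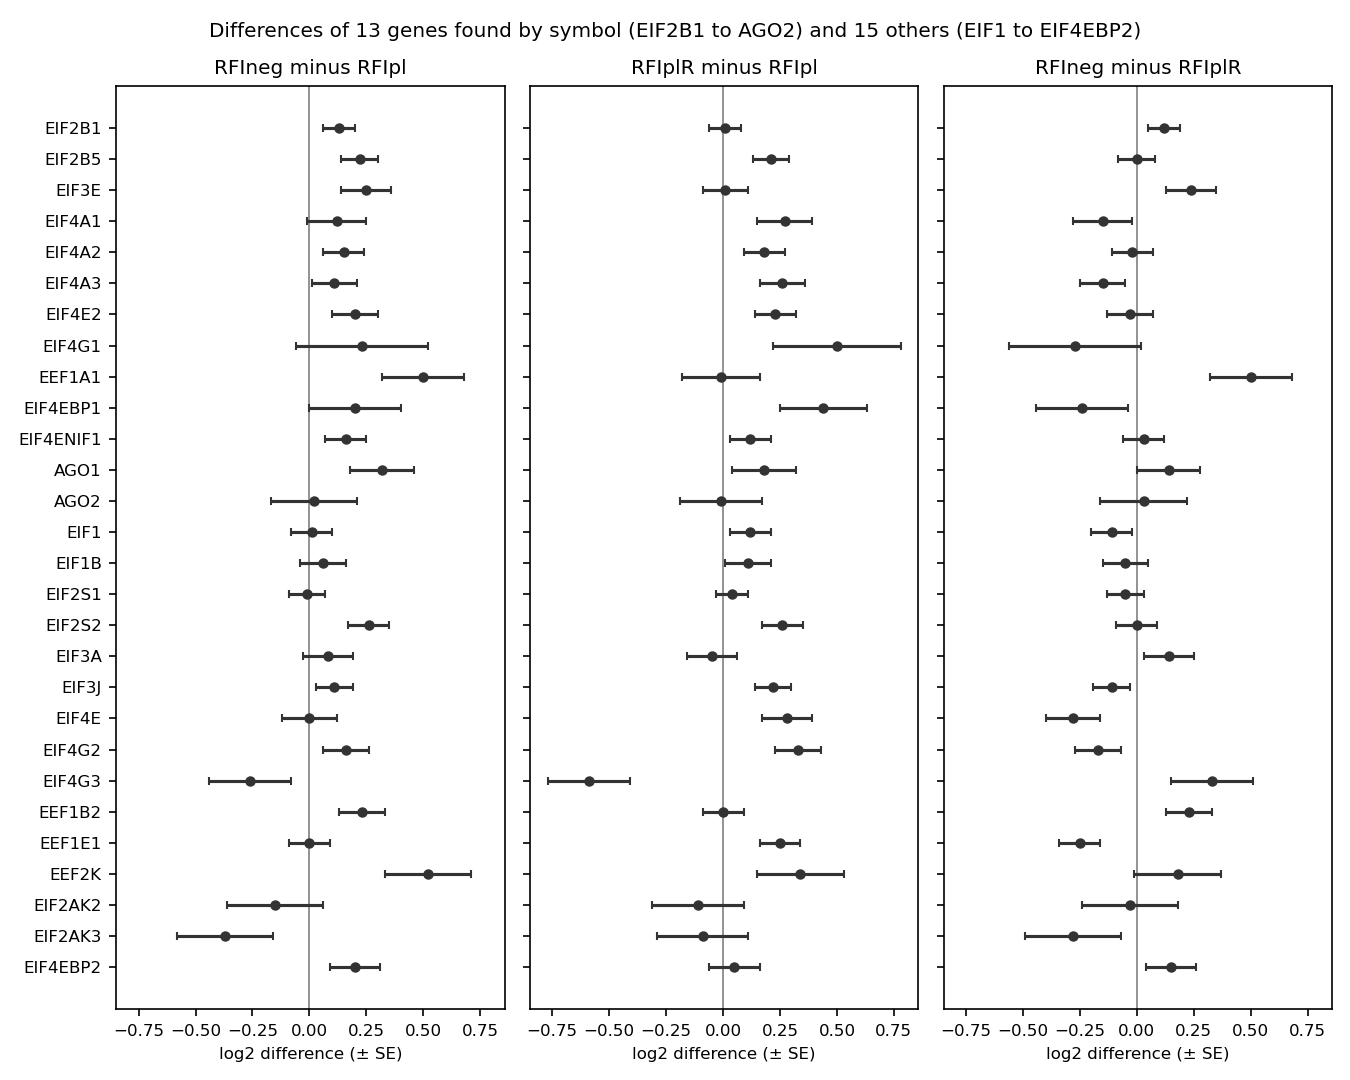
Log2 difference with its standard error for 28 genes in the 3 comparisons, each from the gene's brightest kept probe. The 13 genes found by symbol run from EIF2B1 to AGO2 and the 15 others from EIF1 to EIF4EBP2. EEF1A1 and EEF2K stand farthest to the right for RFIneg minus RFIpl at 0.50 and 0.52, and EIF4G3 stands alone on the left for RFIplR minus RFIpl at -0.59.

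Of the added genes that act at the cap, EIF4E, the cap-binding protein itself, had levels of 2.42, 2.61 and 2.94 in RFIneg pigs, 2.71, 2.89 and 3.30 in RFIplR pigs and 2.50, 2.54 and 3.12 in RFIpl pigs. All 8 RFIplR pigs lay above the RFIpl median and 4 of 7 RFIneg pigs lay below the lowest RFIplR pig. The differences were 0.28 for RFIplR minus RFIpl (SE 0.11, limma p 0.0231, adjusted p 0.408), -0.28 for RFIneg minus RFIplR (SE 0.12, p 0.027, adjusted p 0.422) and 0.00 for RFIneg minus RFIpl (SE 0.12, adjusted p 0.998). Normexp turned EIF4E too, with RFIplR minus RFIpl of -0.08 with the fit to negative controls and -0.41 with the saddle-point fit.

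EIF4G2, an eIF4G relative that works without the cap-binding protein, had levels of 5.98, 6.39 and 6.50 in RFIneg pigs, 6.30, 6.52 and 6.73 in RFIplR pigs and 5.87, 6.12 and 6.51 in RFIpl pigs. Of the 8 RFIplR pigs 4 lay above the highest RFIpl pig and all 8 above the RFIpl median. EIF4G2 had RFIplR minus RFIpl of 0.33 (SE 0.10, limma p 0.00307, adjusted p 0.208), with 0.51 and 0.15 on scan days 1 and 2, and -0.19 and -0.51 with the normexp fits to negative controls and by saddle point. EIF4G3, a paralog of eIF4G1, went the other way, with levels of 1.49, 2.04 and 2.53 in RFIneg pigs, 1.0, 1.82 and 2.52 in RFIplR pigs and 1.85, 2.37 and 2.55 in RFIpl pigs. Of the 8 RFIplR pigs 4 lay below the lowest RFIpl pig. EIF4G3 had RFIplR minus RFIpl of -0.59 (SE 0.18, limma p 0.00303, adjusted p 0.208), at -0.87 and -0.31 on the 2 days and at -0.78 and -0.96 with both normexp fits, and RFIneg minus RFIplR was 0.33 (SE 0.18, adjusted p 0.552).

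EIF2S2, the beta subunit of eIF2, was ordered like EIF2B5. Its level was -0.42, -0.29 and -0.20 in RFIneg pigs, -0.52, -0.26 and -0.05 in RFIplR pigs and -0.84, -0.53 and -0.30 in RFIpl pigs, and 5 of 7 RFIneg and 5 of 8 RFIplR pigs lay above the highest RFIpl pig. RFIneg minus RFIpl was 0.26 (SE 0.09, limma p 0.00848, adjusted p 0.273) and RFIplR minus RFIpl 0.26 (SE 0.09, p 0.00698, adjusted p 0.269), each above 0 on 6 of 6 slides. With both normexp fits the EIF2S2 values stayed at 0.23 for RFIneg minus RFIpl and at 0.23 and 0.21 for RFIplR minus RFIpl. EIF2S1, the alpha subunit that the stress kinases phosphorylate, lay close to 0 on all 4 probes, between -0.01 and 0.03 for RFIneg minus RFIpl and between 0.04 and 0.09 for RFIplR minus RFIpl, but its brightest probe had -0.29 and -0.59 in that feeding comparison with the 2 normexp fits.

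EIF3J, a loosely bound eIF3 subunit, had RFIplR minus RFIpl of 0.22 (SE 0.08, limma p 0.0075, adjusted p 0.274), with 7 RFIplR values since 1 spot was missing, and 6 of these lay above the highest RFIpl pig. It was -0.16 and -0.20 with the normexp fits. The 5 probes of EIF3A, the largest eIF3 subunit, disagreed. For RFIplR minus RFIpl they ranged from -0.32 to 0.26, and the 2 at these ends had limma p of 0.0258 and 0.0144. The brightest EIF3A probe had -0.05, and -0.62 and -0.93 with the normexp fits. EIF1 and EIF1B, which guard start codon selection, had RFIneg minus RFIpl of 0.01 (SE 0.09) and 0.06 (SE 0.10). Their RFIplR minus RFIpl was 0.12 (SE 0.09) and 0.11 (SE 0.10). With the normexp fits RFIplR minus RFIpl was -0.28 and -0.69 for EIF1 and -0.29 and -0.65 for EIF1B.

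Of the elongation factors added, EEF1B2, an exchange factor that recharges eEF1A, was ordered like EEF1A1. Its level was 2.56, 2.72 and 2.99 in RFIneg pigs, 2.21, 2.55 and 2.81 in RFIplR pigs and 2.27, 2.57 and 2.73 in RFIpl pigs, and 3 of 7 RFIneg pigs lay above the highest pig of either other group. The differences of EEF1B2 were 0.23 for RFIneg minus RFIpl (SE 0.10, limma p 0.0288, adjusted p 0.379), 0.23 for RFIneg minus RFIplR (SE 0.10, p 0.0274, adjusted p 0.424) and 0.00 for RFIplR minus RFIpl (SE 0.09, adjusted p 0.999). The normexp fits gave EEF1B2 0.25 and 0.10 for RFIneg minus RFIpl, 0.52 and 0.65 for RFIneg minus RFIplR and -0.27 and -0.55 for RFIplR minus RFIpl. EEF1E1, a scaffold protein of the aminoacyl-tRNA synthetase complex with an elongation factor's name, was ordered otherwise, at 0.25 (SE 0.09, limma p 0.0119, adjusted p 0.334) for RFIplR minus RFIpl and -0.25 (SE 0.09, p 0.0144, adjusted p 0.361) for RFIneg minus RFIplR. With the normexp fits these shrank to 0.07 and 0.01 and to -0.11 and -0.07.

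**Figure D4:**
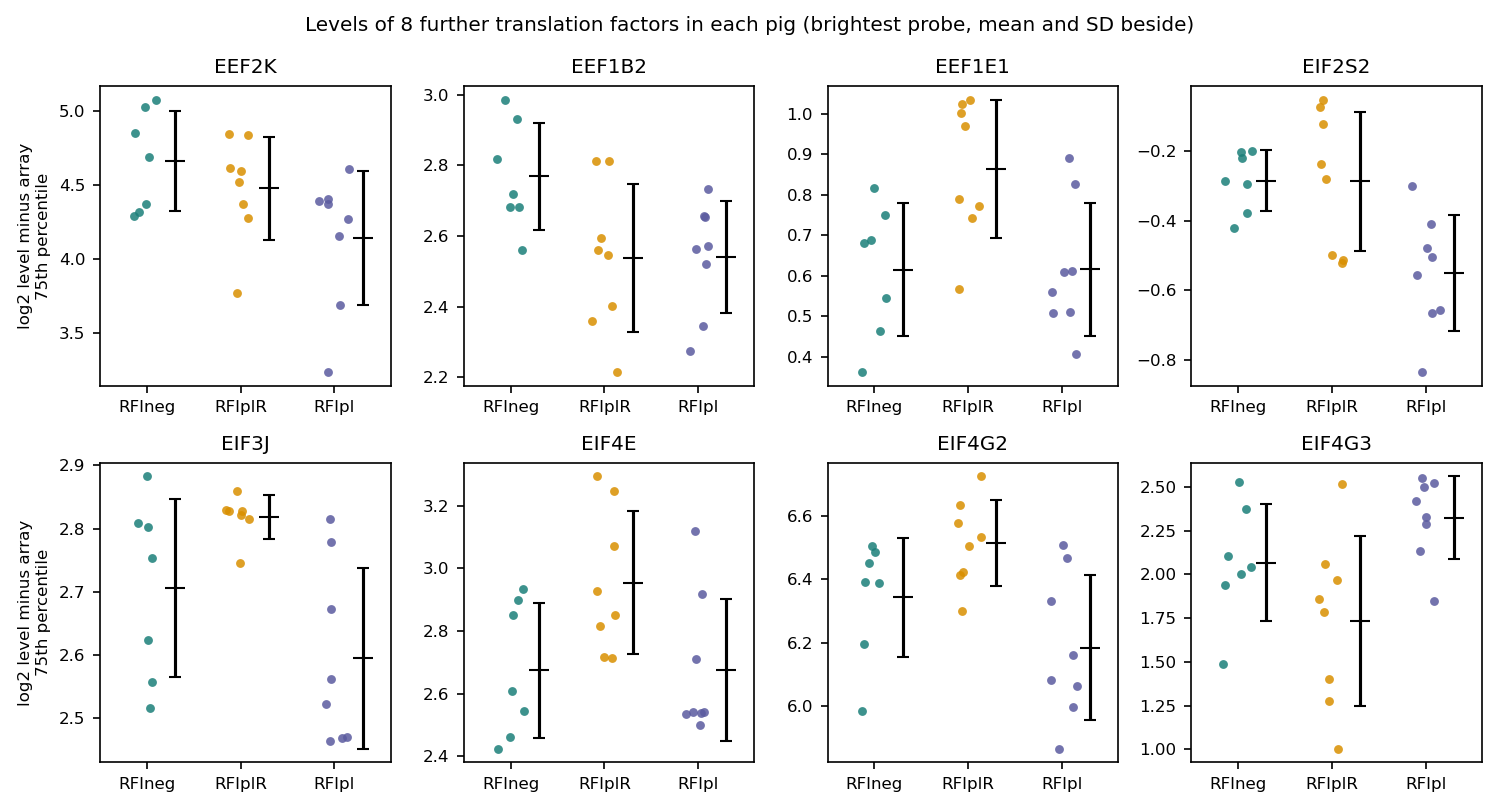
Level of 8 further factors in each pig, in log2 units relative to the 75th percentile of the array, with RFIneg, RFIplR and RFIpl from left to right. Points are pigs (7, 8 and 8, and 7, 7 and 8 for EIF3J), and the bar beside them is the mean with 1 SD. For EIF2S2, 5 of 7 RFIneg and 5 of 8 RFIplR pigs stand above every RFIpl pig, and for EIF4G3 4 of 8 RFIplR pigs stand below every RFIpl pig.

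Restraining factors did not share an order of the groups. EEF2K, the kinase that blocks eEF2, had levels of 4.29, 4.69 and 5.07 in RFIneg pigs, 3.77, 4.56 and 4.84 in RFIplR pigs and 3.24, 4.32 and 4.60 in RFIpl pigs. Of the 7 RFIneg pigs 4 lay above the highest RFIpl pig, and 3 of 8 RFIplR pigs did. RFIneg minus RFIpl was 0.52 (SE 0.19, limma p 0.0128, adjusted p 0.298), at 0.71 and 0.33 on scan days 1 and 2 and above 0 on 4 of 6 slides. RFIplR minus RFIpl was 0.34 (SE 0.19, limma adjusted p 0.582) and RFIneg minus RFIplR 0.18 (SE 0.19, adjusted p 0.814). The RFIneg minus RFIpl difference of this restraining kinase was thus of the same sign as that of EEF1A1 and about its size. Single pigs and background correction moved the values of EEF2K. Without RFIpl replicate 2 its RFIplR minus RFIpl was 0.21, the normexp fits gave -0.18 and -0.53 for that comparison, and RFIneg minus RFIpl was 0.51 and 0.31 with them.

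Of the stress kinases, EIF2AK3, the PERK kinase of the endoplasmic reticulum, had RFIneg minus RFIpl of -0.37 (SE 0.21, limma adjusted p 0.535) on a dim probe. This rested on RFIneg replicate 7, which stood at -4.52 and was not well above background there, and the difference was -0.12 without that pig, and -0.12 and 0.06 with the normexp fits. EIF2AK2, the kinase activated by double-stranded RNA, had -0.15 (SE 0.21, limma adjusted p 0.866), or -0.03 without RFIpl replicate 7. EIF4EBP2, a second 4E-BP, had 0.20 (SE 0.11, limma adjusted p 0.516), 0.05 (SE 0.11) and 0.15 (SE 0.11). The normexp fits gave EIF4EBP2 -0.42 and -0.79 for RFIplR minus RFIpl and 0.57 and 0.74 for RFIneg minus RFIplR. Over the 5 restraining genes the medians were 0.20, 0.05 and -0.03, beside 0.44 for EIF4EBP1 alone for RFIplR minus RFIpl.

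Genes around the factors were described from lists by count and median, and no gene of these lists passed in limma. All 37 measured cytosolic ribosomal protein genes were above 0 for RFIneg minus RFIpl, with a median of 0.20 and 29 at an unadjusted p under 0.05. Of all kept probes 55.3% were above 0 and 7.19% higher at such a p. Of the brightest 10% of kept probes 68.1% were above 0 and 20.5% higher at such a p. The lowest limma adjusted p was 0.147, that of RPL14 at 0.50 (SE 0.13). For RFIplR minus RFIpl all 37 genes were also above 0, with a median of 0.07 and 0 at such a p. Of all kept probes 53.1% were above 0 and 4.95% higher at such a p there. For RFIneg minus RFIplR 36 of 37 were above 0, with a median of 0.14 and 14 higher at such a p. The shares of all kept probes there were 54.7% and 5.57%.

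Of 48 listed mTOR pathway genes 12 were measured. Their medians were 0.09, 0.07 and 0.09, with 7, 9 and 8 above 0, beside 55.3%, 53.1% and 54.7% of all kept probes. At an unadjusted p under 0.05 there were 1, 0 and 2, beside 11.1%, 9.76% and 10.2%. The 1 was higher in RFIneg than in RFIpl, and the 2 were lower in RFIneg than in RFIplR. These 2 were DDIT4 and TBC1D7, the latter at -0.36 (SE 0.16, limma adjusted p 0.456). DDIT4, an inhibitor of mTOR complex 1 that responds to stress and glucocorticoids, had RFIneg minus RFIplR of -0.69 (SE 0.31, limma adjusted p 0.458) and RFIplR minus RFIpl of 0.55 (SE 0.30, adjusted p 0.587). PDCD4, an inhibitor of the eIF4A helicase, had RFIneg minus RFIpl of 0.24 (SE 0.11, adjusted p 0.426). Of 19 listed genes of the integrated stress response 8 were measured, with medians of 0.07, 0.12 and -0.12. PHGDH, which opens serine synthesis, had 0.65 (SE 0.30, adjusted p 0.42) for RFIneg minus RFIpl and 0.64 (SE 0.29, adjusted p 0.468) for RFIplR minus RFIpl.

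Of 17 listed genes of termination, ribosome recycling and poly(A) binding 8 were measured, with medians of 0.03, 0.10 and 0.04. PAIP1, which links the poly(A)-binding protein to eIF4A and eIF3, had RFIneg minus RFIpl of 0.43 (SE 0.12, limma adjusted p 0.186) and RFIplR minus RFIpl of 0.35 (SE 0.12, adjusted p 0.269). PABPC1, the poly(A)-binding protein itself, had -0.23 (SE 0.11, adjusted p 0.433) and -0.36 (SE 0.11, adjusted p 0.192). ABCF1, which binds eIF2 and ribosomes, had RFIplR minus RFIpl of -0.56 (SE 0.16, adjusted p 0.188) and RFIneg minus RFIplR of 0.56 (SE 0.17, adjusted p 0.225). Only 2 of 9 mitochondrial translation factors were measured, MTRF1 at -0.22 (SE 0.15) and MTIF3 at -0.03 (SE 0.14) for RFIneg minus RFIpl.

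Markers of cell types were described by sign and median in both comparisons with RFIpl, and none passed in limma. Of all kept probes 55.3% were above 0 for RFIneg minus RFIpl and 53.1% for RFIplR minus RFIpl. The fibroblast count for RFIneg minus RFIpl and the adipocyte count for RFIplR minus RFIpl lay near what these shares give. The mean level of 10 measured adipocyte markers of 12 listed was 0.14 to 1.33 in RFIneg, 0.15 to 1.68 in RFIplR and -0.16 to 2.30 in RFIpl, and all 10 were below 0 for RFIneg minus RFIpl, with a median of -0.49. Of 8 measured leukocyte markers of 14 listed 7 were below 0 (median -0.28), of 7 fibroblast markers of 9 listed 4 (median -0.06) and of 5 endothelial markers of 7 listed 4 (median -0.14). No erythroid marker of 5 listed was named. All 12 measured muscle fibre markers were above 0, with a median of 0.16. For RFIplR minus RFIpl all 8 initiation factors found by symbol were above 0 in the main fit. In that comparison 6 of 10 adipocyte markers were below 0 (median -0.06) and 6 of 8 leukocyte markers (median -0.22). So were 6 of 7 fibroblast markers (median -0.21) and 4 of 5 endothelial markers (median -0.23). Above 0 were 10 of 12 muscle fibre markers (median 0.06). Their part in the translation factor differences was not tested, and in whole muscle a change in the share of a cell type cannot be told apart from a change in RNA per cell.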

How the data were processed

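Total RNA of Longissimus muscle was amplified to Cy3-labelled cRNA and read on Agilent single-colour arrays, per the labels' protocols. Spot intensity values were deposited after background subtraction and spatial detrending in Feature Extraction 10.7.3.1, per the file headers, with no scaling between arrays. Mean and background intensity values, per the file headers, served for normexp only. The authors' deposited table of 26410 rows held log2 processed signals minus a constant for each array (column median 0) and was used as an alternative. R 2.10.0 is named by the submitters' processing notes. The well-above-background and outlier marks of the deposited files are software flags, per the file headers.

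Log2 processed signals minus each array's 75th percentile over 43803 non-control spots were used, with spots flagged as outliers missing and spots of a probe averaged. The filter on dim probes kept 27797 of 43603 probes if all spots were well above background on 6 or more arrays of any 1 group. They had 484 missing values. The number of pigs limits the precision. Array pairs correlated at up to 0.99. One limma model (version 3.58.1, R 4.3.3) held all 3 groups, with p adjusted by Benjamini-Hochberg over all kept probes and a threshold of 0.05. Scripts were tested on simulated data. Symbols came from the files and from the RefSeq annotation of Sscrofa11.1, which together named 11991 probes with 5250 symbols. A further 26 family probes, described only by likeness to proteins of other species, were not used. The files give no coordinates for the probes, and none are given here.

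The text names every measured elongation and restraining factor. In each comparison it names up to 8 initiation or other factors with the smallest p. Of each pathway list it names genes from the 3 with the smallest p per comparison. Factors whose probes had opposite signs, at least 1 with a p under 0.01, would also be named. EIF3A falls outside this rule and was named after its values were seen. The genes without an EIF or EEF symbol were added after the data were seen. The members and lists were chosen with earlier results of these data known. Alternatives were other centring, normalization, background correction, filters, variance models and blocks, the deposited table, and leaving out each pig in turn or slide 3. The labels' replicate numbers were checked for pairing. Of 22 same-numbered pairs across groups 7 had a correlation of deviations over 0.1 (median 0.048), beside 39 of 154 other pairs (median -0.013). Of 28 same-slide pairs across groups 14 did (median 0.103). The numbers were therefore not used as pairs, but expression values alone cannot exclude a pairing.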

Additional observations from a re-analysis of the deposited data

Results flagged for a closer look

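In 39 groups of member values (13 genes in 3 groups), 5 held a pig that Dixon's test sets apart from the others of its group, where chance gives about 1 in 20. For EIF4A2, RFIneg replicate 7 stood at 7.11, with the next pig at 6.92, on the array with the lowest share of probes well above background (41.6%). For EIF4A3, RFIplR replicate 7 stood at 3.69, below the next at 4.21. For EIF4EBP1, RFIplR replicate 5 stood at 0.13, above the next at -1.20. For EIF4G1, RFIneg replicate 2 stood at -5.06, below the next at -4.17 and not well above background, and RFIplR replicate 6 stood at -1.88, above the next at -3.51, on slide 3 with 45.8% of probes well above background. None of these pigs stood apart in another of the 13 genes, and no cause was tested.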

How the results depend on the processing

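No member passed limma's threshold under any of 39 alternatives, and 1511 of 1515 gene differences kept their sign or lay within 1 SE of 0 in either fit, with a lowest adjusted p of 0.121. At an unadjusted p under 0.05 the counts without each pig in turn were 3 to 5 of 13 for RFIneg minus RFIpl, 2 to 6 for RFIplR minus RFIpl and 1 to 2 for RFIneg minus RFIplR, and the other settings gave 0 to 7, 1 to 11 and 1 to 5, the highest with the added genes. The planned normexp correction by maximum likelihood was not run because its fit failed. A saddle-point version, chosen after seeing the data, gave background SDs over 100 on 5 arrays. It moved the initiation medians to 0.014, -0.38 and 0.38 for RFIneg minus RFIpl, RFIplR minus RFIpl and RFIneg minus RFIplR, and the EEF1A1 difference to -0.82 and 1.08 in the last 2. It reversed RFIplR minus RFIpl of EIF2B5 (-0.31), EIF4A2 (-0.66) and EIF4A3 (-0.57) and RFIneg minus RFIplR of EIF4A3 (0.47). Normexp on the negative controls gave initiation medians of -0.14 and 0.27 and EEF1A1 differences of -0.45 and 0.92 for RFIplR minus RFIpl and RFIneg minus RFIplR. The causes were not tested. With the added genes the restraining median for RFIplR minus RFIpl was 0.05. With replicate number as a block EEF1A1 was 0.56 for RFIneg minus RFIpl and 0 members passed, and the block changed no call. Among settings other than normexp, the initiation median stayed positive for both comparisons with RFIpl. Dim signals limit EIF4G1, EIF2AK3 and AGO2, which were not well above background on some arrays. The strand of the EIF4G1 and EIF4EBP1 probes, which appears to be opposite the mRNA and was not tested, limits their values as well.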
